A study of Homo sapiens with 4 samples.

Results

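The 4 HOX gene clusters of the human genome were examined in FADU cells (FaDu), an established human line of squamous carcinoma of the lower throat (hypopharynx). The members were the 500 bp windows of a deposited genome-wide window table that lie in 4 fixed regions of hg19. These regions are defined by position: HOXA on chr7:27100001-27300000, HOXB on chr17:46600001-46820000, HOXC on chr12:54320001-54460000 and HOXD on chr2:176930001-177070000. There were 573 such windows among the 956365 of the whole table, 192 in HOXA, 181 in HOXB, 117 in HOXC and 83 in HOXD. The study had 1 library for each of 4 conditions: a scrambled control under normoxia, a scrambled control under hypoxia (1% O2, 18 h), a TET1 knockdown (TET1-si) under normoxia and a TET1 knockdown under hypoxia (1% O2, 19 h). The titles call the libraries hMeDIP-seq, the labelled protocol names an antibody against 5-methylcytidine and the published methods describe chemical labelling of 5-hydroxymethylcytosine (5hmC), so the cytosine mark behind the windows is uncertain. The 4 value columns of the table carry names that match no condition. Their values were therefore not used, no comparison of hypoxia with normoxia or of TET1 knockdown with control was made, and the reads behind each window and library were not counted. What was measured is whether a window of the genome is present in the table ("listed") or not ("unlisted"). The name of the table carries a minimum of 20, with no unit, and what this minimum was applied to was not tested. A listed window is not tied to any 1 condition, and an unlisted window may still have had reads.

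HOX genes encode homeodomain transcription factors that set the identity of body segments along the head-to-tail axis. They lie in clusters in which the low-numbered genes are switched on early and towards the head and the high-numbered genes later and towards the tail, and genes of the same number in different clusters are paralogues. The clusters are dense in CpG sites, the dinucleotides at which cytosine is methylated, and are classical targets of Polycomb repression and trithorax activation. TET1 is an enzyme that oxidises 5-methylcytosine to 5hmC, and many HOX genes are expressed again in carcinomas.

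The sequence directly upstream of HOXA9 and of HOXD10 is shown first, from GRCh37 (the sequence of hg19 on these chromosomes), in the direction of transcription, with each CpG site in capitals. HOXA9, a gene known for its role in leukaemia, had 20 CpG sites in the 250 bases on the minus strand of chr7:27205157-27205406. HOXD10, a gene of limb and spinal cord patterning, had 23 in the 250 bases on the plus strand of chr2:176981256-176981505.

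HOXA9 upstream: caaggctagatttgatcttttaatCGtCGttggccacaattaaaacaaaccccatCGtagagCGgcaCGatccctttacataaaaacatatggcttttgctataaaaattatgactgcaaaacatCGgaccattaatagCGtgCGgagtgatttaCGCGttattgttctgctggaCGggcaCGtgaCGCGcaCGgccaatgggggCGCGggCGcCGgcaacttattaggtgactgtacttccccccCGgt

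HOXD10 upstream: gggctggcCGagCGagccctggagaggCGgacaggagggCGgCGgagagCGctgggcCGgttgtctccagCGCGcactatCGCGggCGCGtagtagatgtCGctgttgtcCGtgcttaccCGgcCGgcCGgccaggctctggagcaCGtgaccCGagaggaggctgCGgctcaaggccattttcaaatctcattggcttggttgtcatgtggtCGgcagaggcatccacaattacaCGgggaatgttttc

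For HOXA9 the printed bases lie in the same window as the start of transcription, and this window was unlisted. For HOXD10 the window of the start, which begins at the last of the printed bases, and the window before it were both listed. In both sequences the CpG sites are spread along the printed bases. Windows rich in CpG sites were found both listed and unlisted, as 3 windows from the CpG-rich first part of HOX transcripts show. They are given on the plus strand, again with CpG sites in capitals. The listed window with the most CpG sites in the 4 clusters, chr2:177053501-177054000, has 67 and lies at the beginning of HOXD1, the most anterior gene of its cluster. Its bases from 177053530 to 177053829 are shown. The unlisted window with the most, chr7:27239001-27239500, has 78 and lies in HOXA13, a gene of digits and of the genital tract, which is transcribed from the minus strand. Its bases from 27239001 to 27239300 are shown. The third window, chr12:54349001-54349500, has 61, was listed and lies in HOXC12, at the longest stretch of listed windows in the clusters. Its bases from 54349001 to 54349300 are shown.

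HOXD1 window, listed: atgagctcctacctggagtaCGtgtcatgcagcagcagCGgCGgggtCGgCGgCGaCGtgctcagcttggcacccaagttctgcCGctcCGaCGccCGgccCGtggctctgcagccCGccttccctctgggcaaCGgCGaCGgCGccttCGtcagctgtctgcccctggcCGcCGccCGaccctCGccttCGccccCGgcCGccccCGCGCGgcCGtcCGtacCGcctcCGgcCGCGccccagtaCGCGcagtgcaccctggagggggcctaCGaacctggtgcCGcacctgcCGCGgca

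HOXA13 window, unlisted: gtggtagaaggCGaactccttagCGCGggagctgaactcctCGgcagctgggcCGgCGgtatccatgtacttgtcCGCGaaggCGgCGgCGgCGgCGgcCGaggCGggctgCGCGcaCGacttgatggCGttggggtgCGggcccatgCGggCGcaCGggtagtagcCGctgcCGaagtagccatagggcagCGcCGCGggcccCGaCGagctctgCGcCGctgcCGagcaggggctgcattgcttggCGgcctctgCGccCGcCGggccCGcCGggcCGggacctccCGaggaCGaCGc

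HOXC12 window, listed: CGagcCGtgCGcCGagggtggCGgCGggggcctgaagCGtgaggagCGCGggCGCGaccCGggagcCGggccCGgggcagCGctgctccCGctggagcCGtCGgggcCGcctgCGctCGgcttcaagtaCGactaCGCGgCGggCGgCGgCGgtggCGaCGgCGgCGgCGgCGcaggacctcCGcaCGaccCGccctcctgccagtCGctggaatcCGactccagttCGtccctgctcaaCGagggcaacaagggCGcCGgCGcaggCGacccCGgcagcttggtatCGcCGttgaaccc

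The HOX clusters were listed more often than most of the genome. Of their 1400 windows, 573 were listed, which is 40.9% (95% Wilson interval 38.4 to 43.5), against a background of 16.7% over all windows of chromosomes 1 to 22, X and Y. A large part of this difference went with base composition. The median window of the clusters had 8 CpG sites and the median autosomal window had 3, and a share of 32.0% was predicted from autosomal windows with the same CpG number and GC content. The ratio of listed to predicted share was 1.28 (interval 1.20 to 1.36). Within the clusters the listed windows had a median of 13 CpG sites and the unlisted ones 6, where the autosomal medians were 7 and 3. Each interval treats windows as independent, which neighbouring windows are not, so the intervals are too narrow. No test was run.

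The 4 clusters differed from each other, with HOXA highest and HOXD lowest. In HOXA 192 of 400 windows were listed, 48.0% (43.1 to 52.9) against a predicted 30.6%, a ratio of 1.57 (1.41 to 1.73). In HOXB 181 of 440 were listed, 41.1% (36.6 to 45.8) against 31.3%, a ratio of 1.32 (1.17 to 1.46). HOXC and HOXB were alike in the share listed, with 117 of 280 windows in HOXC, 41.8% (36.2 to 47.6), but the prediction was higher for HOXC, at 36.3%, and its ratio of 1.15 had an interval of 0.996 to 1.31. In HOXD 83 of 280 were listed, 29.6% (24.6 to 35.2), close to the predicted 31.0%, with a ratio of 0.958 (0.795 to 1.14). Among non-overlapping autosomal pieces of the same length, whose median share was 10.0% to 10.5%, a higher share than that of the cluster was found in 8.67% for HOXA, 11.7% for HOXB, 11.9% for HOXC and 20.0% for HOXD. When the pieces were ranked by the ratio to prediction, these percentages were 13.8%, 21.2%, 28.1% and 37.2%.

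**Figure D1:**
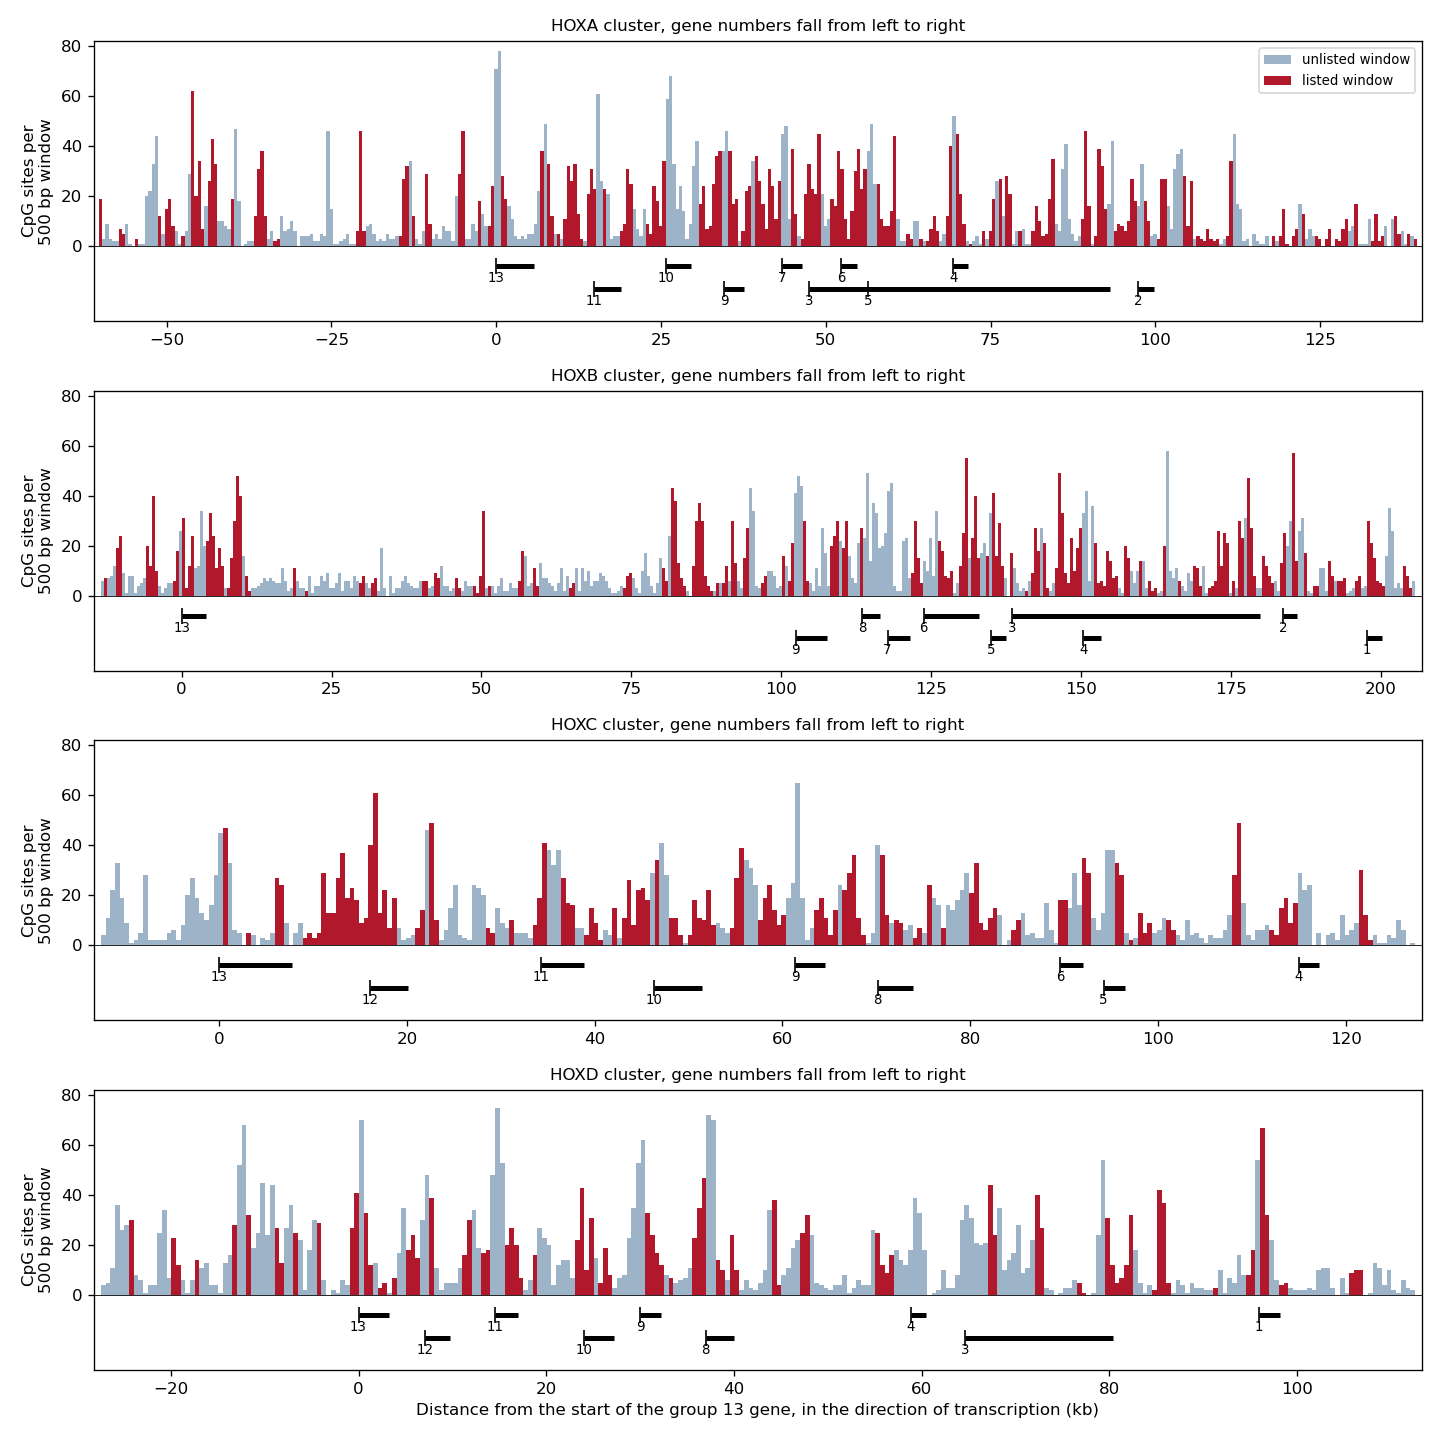
Every 500 bp window of the 4 regions, with its number of CpG sites as the height of the bar (y axis), its distance in kb from the start of the group 13 gene in the direction of transcription (x axis), red for listed and blue-grey for unlisted windows, and black lines below for the canonical transcripts of the numbered HOX genes, with a tick at its start. The most CpG-rich window, at HOXA13 with 78 CpG sites, is unlisted, red windows are densest from HOXA9 to HOXA5 and around HOXC12, and HOXB7 lies in a stretch without red.

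The surroundings changed how each cluster reads. In the 1 Mb on each side of HOXA 15.5% of windows were listed, a ratio of 0.947 to prediction, and over the whole of chromosome 7 the ratio was 0.823, so HOXA stood above both. HOXD was also above its surroundings, since its flanks had 6.68% of windows listed and a ratio of 0.549, and chromosome 2 had a ratio of 0.674. The ratio of HOXD divided by that of its flanks was 1.75, and that of HOXA was 1.66. HOXB, in contrast, lay in flanks with 38.9% of windows listed and a ratio of 1.44, above its own, and with the prediction made from chromosome 17 its ratio was 1.03. HOXC was close to its flanks, which had 27.3% listed and a ratio of 1.11, and to chromosome 12, with 1.06. With each cluster's own chromosome as the source of the prediction, HOXD had a ratio of 1.35 and HOXA 1.76. Copy number in this cell line, which could differ between these regions, was not tested, and no input library was analysed here.

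**Figure D2:**
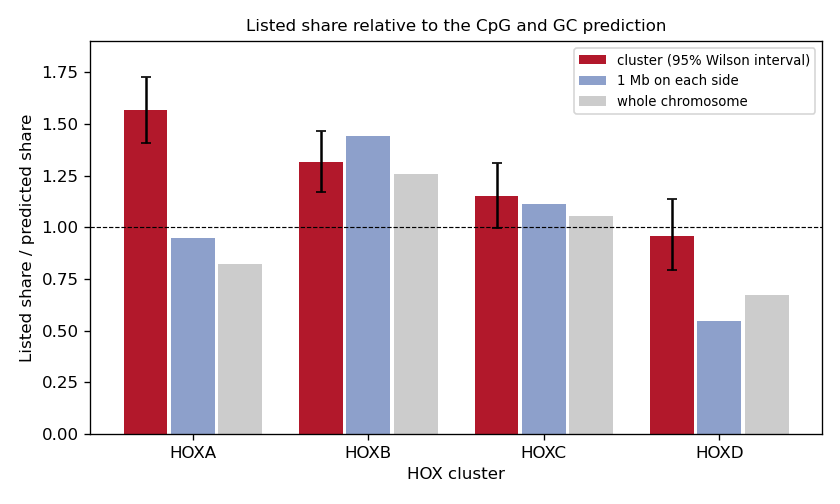
Ratio of the listed share to the share predicted from CpG number and GC content (y axis, no unit) for each HOX cluster in red with its 95% Wilson interval, for the 1 Mb on each side in blue and for the whole chromosome in grey, with a dashed line at a ratio of 1. HOXA and HOXD exceed their flanks (1.57 against 0.947 and 0.958 against 0.549), whereas HOXB does not (1.32 against 1.44).

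For the 4 clusters together the share was higher than that of the autosomes in every class of CpG number, but not for HOXD alone. Windows with 0 to 4 CpG sites were listed in 81 of 403 cases (20.1%, interval 16.5 to 24.3), against 8.20% of autosomal windows of that class. With 5 to 9 CpG sites it was 132 of 339 (38.9%) against 27.1%, with 10 to 19 it was 161 of 295 (54.6%) against 45.7%, and with 20 to 39 it was 167 of 284 (58.8%, interval 53.0 to 64.4) against 48.5%. The share fell again in the most CpG-rich class in the clusters as on the autosomes, to 32 of 79 windows (40.5%, interval 30.4 to 51.5) against 29.4%. The clusters were not alike in this respect. HOXA had 72.9% of its windows with 20 to 39 CpG sites listed (interval 62.7 to 81.2) and only 33.3% of those with 40 or more (18.6 to 52.2), HOXB kept 52.6% in the latter class (31.7 to 72.7), and HOXC 54.5% of only 11 windows. HOXD was at 8.00% (3.72 to 16.4) in the class of 0 to 4 CpG sites, which is the autosomal level, at 26.9% (16.8 to 40.3) in that of 5 to 9, at 38.1% (27.1 to 50.4) in that of 10 to 19, below the autosomal 45.7%, and at 47.1% (35.7 to 58.8) in that of 20 to 39. Without HOXA, the combined shares of the classes of 0 to 4 and 20 to 39 CpG sites were 16.3% and 52.8%.

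**Figure D3:**
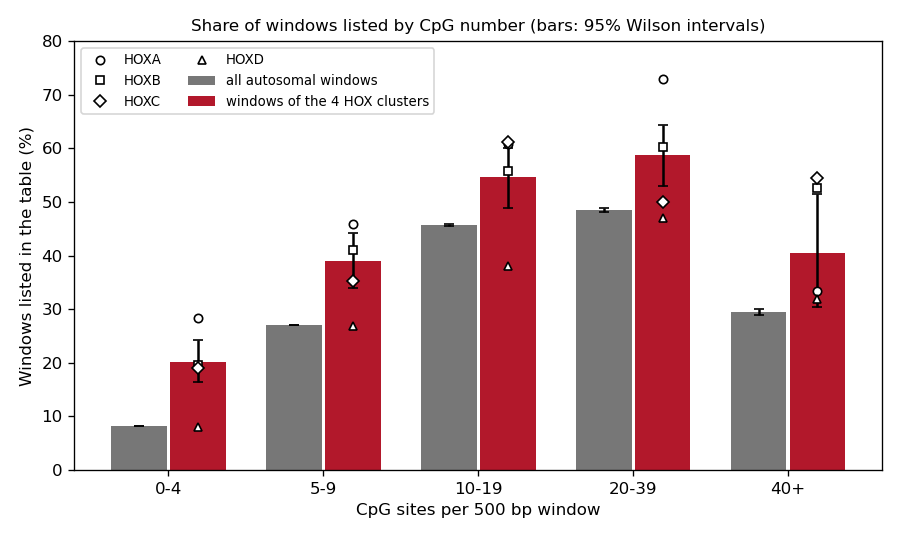
Percentage of windows listed (y axis) by the number of CpG sites per 500 bp window (x axis), for all autosomal windows in grey and the 4 HOX clusters together in red, with 95% Wilson intervals and open symbols for the single clusters. The red bar is above the grey bar in each class, HOXA reaches 72.9% at 20 to 39 CpG sites, and HOXD is at the autosomal level of about 8% at 0 to 4.

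Windows at the starts of HOX genes were listed about as often as predicted and windows upstream more often than predicted, the latter as in protein-coding genes at large. Of the 39 windows that hold the start of the canonical transcript, 13 were listed (33.3%), against a background of 27.4% of 18977 autosomal protein-coding genes. From their composition 37.3% was predicted for the HOX genes and 34.6% for all genes. The listed starts were those of HOXA3, HOXA6 and HOXA11, of HOXB1, HOXB2, HOXB3 and HOXB8, of HOXC6, HOXC11 and HOXC12, and of HOXD8, HOXD10 and HOXD13. Start windows richer in CpG sites were listed less often. With 0 to 19 CpG sites 4 of 8 were listed, where all genes had 40.1%, with 20 to 39 it was 6 of 16 (37.5%), where all genes had 28.4%, and with 40 or more it was 3 of 15 (20.0%), where all genes had 19.1%. HOXC12, HOXD8 and HOXD13 were the last 3, with 40, 47 and 41 CpG sites.

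Upstream of the start, 34 of the 39 HOX genes (87.2%) had 1 or more of the 6 windows with a midpoint within 3000 bp listed, against a background of 76.6% of all protein-coding genes. Of the 26 HOX genes with an unlisted start, 22 had such a window. The same share was not computed for all protein-coding genes with an unlisted start, so this count is not read as a HOX trait. In all, 124 of 234 upstream windows were listed (53.0%), where 39.3% was predicted. All genes had 39.6% with 29.3% predicted, so the ratio was 1.35 for the HOX genes and 1.35 for all genes. Downstream of the start, over the same distance, it was 109 of 234 (46.6%), a ratio of 1.25, and all genes had 1.26. Relative to composition, the HOX genes taken as a whole were thus no higher than all genes on either side of the start. The clusters spread more widely upstream than downstream. HOXA had 50 of 66 upstream windows listed (75.8%, with 40.8% predicted), HOXC 28 of 54 (51.9%, with 41.8% predicted), HOXB 29 of 60 (48.3%, with 36.4% predicted) and HOXD 17 of 54 (31.5%, below its prediction, with a ratio of 0.829). Downstream, in the same order, they had 33 of 66, 26 of 54, 24 of 60 and 26 of 54. More windows were listed upstream than downstream in 8 of 11 HOXA genes, 6 of 10 HOXB genes, 3 of 9 HOXC genes and 2 of 9 HOXD genes. These counts were not made for all protein-coding genes, and neighbouring HOX genes can share windows, so no difference is read from them.

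The profile around the start had its highest point for the HOX genes from 1000 to 500 bp upstream, where 25 of 39 windows were listed (64.1%, interval 48.4 to 77.3), with 46.9% predicted. All protein-coding genes also had their upstream maximum there, at 47.9% with 33.2% predicted. The first 500 bp of the transcript had 15 of 39 windows listed (38.5%, interval 24.9 to 54.1), close to the predicted 37.5%. In all protein-coding genes this bin had 25.4%, below the predicted 35.6%. At HOX starts this bin had a mean of 40.3 CpG sites and at all starts 34.6. The HOX interval reaches below 25.4%, so with 39 genes a difference in this bin was not resolved.

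**Figure D4:**
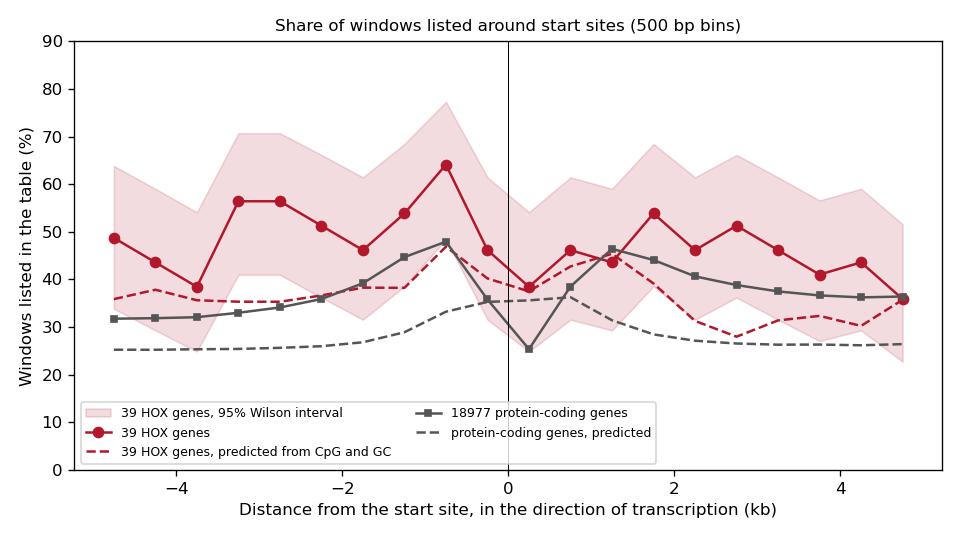
Percentage of windows listed (y axis) in 500 bp bins by distance from the start of transcription in kb (x axis, negative is upstream), for the 39 HOX genes in red with a shaded 95% Wilson interval and 18977 autosomal protein-coding genes in grey, with dashed lines for the share expected from composition. The red line peaks at 64.1% from 1000 to 500 bp upstream, and in the first 500 bp of the transcript the grey line falls to 25.4%, below its dashed line, while the red line is at 38.5%, near its own.

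Over single genes, the canonical transcript was joined with the 3000 bp upstream. The median HOX gene had 50.0% of these windows listed and a ratio of 1.34 to prediction, and the ratio was over 1 in 28 genes and under 1 in 11. Counts of genes by this ratio, or by all or no windows listed, were not made for all protein-coding genes. Those genes also lay above prediction around their starts, with ratios of 1.35 upstream and 1.26 downstream. Whether the HOX counts differ from those of genes at large was not tested. All 6 upstream windows were listed in 6 genes (HOXA2, HOXA5, HOXA7, HOXA10, HOXC4 and HOXC12) and none in 5 (HOXB7, HOXC6, HOXC13, HOXD3 and HOXD9). No window of the transcript itself was listed in 5 genes (HOXA10, HOXB7, HOXB8, HOXC4 and HOXD4). HOXA10, a gene of the uterus and of blood progenitors, and HOXC4, a gene of lymphoid cells, thus had all 6 upstream windows listed and none of the 8 and 5 windows of their transcripts.

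**Figure D5:**
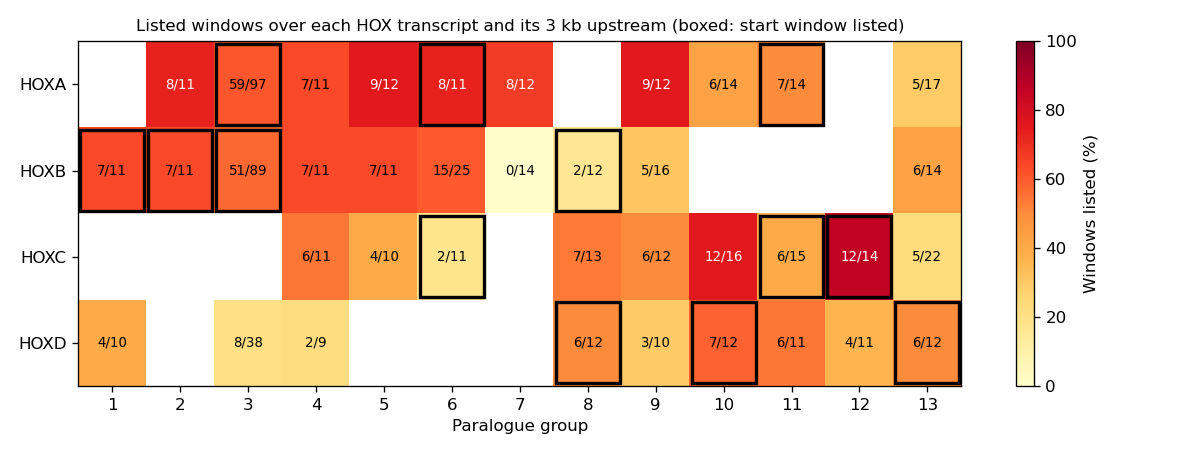
Listed windows over all windows of each HOX transcript with its 3000 bp upstream, as text and as a colour scale in percent, by paralogue group (x axis) and cluster (y axis), with a box where the start window was listed and white where no gene is shown. HOXC12 (12 of 14) is the darkest cell, HOXB7 (0 of 14) the palest, and HOXA is evenly dark from group 2 to group 9.

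In HOXA, 10 of 11 genes had a ratio over 1, and the middle of the cluster was the most densely listed. HOXA9 and HOXA5, a regulator of lung and breast epithelium, each had 9 of 12 windows listed, with 35.1% and 38.3% predicted. For HOXA9 these were 5 of 6 upstream windows and 4 of 6 in the transcript, around an unlisted start window with 38 CpG sites. HOXA13 at the 13 end had 5 of 17 (29.4%), as predicted (29.6%), with 3 of 6 upstream windows and 2 of 11 in the transcript. Its start window, with 71 CpG sites, and the next one into the transcript, with 78, were both unlisted. HOXA4 had the highest ratio of the cluster, with 7 of 11 windows listed and a predicted 27.3%.

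In HOXB the genes from HOXB1 to HOXB6 had shares from 57.3% to 63.6%, and HOXB7, HOXB8 and HOXB9 had lower ones. HOXB1, HOXB2, HOXB4 and HOXB5 each had 7 of 11 windows listed (63.6%), with predictions from 33.7% to 44.7%. HOXB1 at the end of the cluster, which acts in the hindbrain, had a listed start and all 5 windows of its transcript listed. HOXB6 had 15 of 25, with 39.4% predicted. HOXB7, a gene often expressed in carcinomas, had 0 of 14 windows listed where 38.1% was predicted, and was the only HOX gene with none. Its neighbour HOXB8 had 2 of 12 (16.7%) and none in the transcript, although its start window was listed. HOXB9 had 5 of 16 (31.2%). HOXB13, a prostate and hindgut transcription factor, lies far from the others at the 13 end and had 6 of 14 (42.9%), close to the predicted 41.1%, with 2 of 6 upstream windows and 4 of 8 in the transcript.

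In HOXC the shares ran from 18.2% to 85.7%, and the posterior genes were not alike. HOXC12 had 12 of 14 windows listed (85.7%), the highest of the 39 genes, where 43.1% was predicted. HOXC10, a gene of the hindlimb and lumbar spinal cord, had 12 of 16, where 40.3% was predicted, with 5 of 6 upstream windows and 7 of 10 in the transcript. HOXC13, the end gene, which acts in hair and nail, had 5 of 22 (22.7%), with none of the 6 upstream windows, an unlisted start with 45 CpG sites and 5 of 16 windows in the transcript. HOXC6 had the lowest share of the cluster at 2 of 11 (18.2%), both in the transcript and 1 of them the start window. HOXC4 at the anterior end had 6 of 11, all 6 upstream.

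In HOXD, 5 of 9 genes had a ratio over 1, and the lowest shares were those of HOXD3, HOXD4 and HOXD9. HOXD10 had the highest share, 7 of 12 (58.3%) with 39.9% predicted, made up of 2 of 6 upstream windows and 5 of 6 in the transcript. Its listed start window had 10 CpG sites, the fewest among the 39 HOX genes. HOXD13 at the 13 end, the gene of synpolydactyly, had 6 of 12 with 24.5% predicted, and HOXD8 6 of 12 with 24.6% predicted, so these had the highest ratios of the cluster, both 2.04. HOXD3 had the lowest share, 8 of 38 (21.1%), with none of 6 upstream, and HOXD4 had 2 of 9 (22.2%) where 50.6% was predicted. HOXD9 had 3 of 10 and HOXD12 4 of 11. HOXD1 at the other end had 4 of 10, with an unlisted start of 54 CpG sites next to the listed window of 67 shown above.

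Along the clusters, the ratio to prediction was highest over the anterior genes, but not in each cluster. Over genes of groups 1 to 4, 158 of 299 windows were listed (52.8%), a ratio of 1.52 (1.36 to 1.68). Over groups 5 to 8 it was 63 of 131 (48.1%), a ratio of 1.24 (1.02 to 1.46), and over groups 9 to 13 it was 105 of 222 (47.3%), also 1.24 (1.07 to 1.41). For groups 1 to 4 the ratio was 1.83 in HOXA, 1.65 in HOXB, 1.34 in HOXC, where HOXC4 is the only such gene, and 0.697 in HOXD. The transcripts of HOXA3 and HOXB3 span other HOX genes, and without these 2 genes the ratio of groups 1 to 4 was 1.29, near that of the other groups. Without HOXA it was 1.33 and without HOXD 1.72. Among paralogue groups, group 2, which holds HOXA2 and HOXB2, had the highest ratio at 1.93 (15 of 22 windows), and group 7, which holds HOXA7 and HOXB7, the lowest at 0.768 (8 of 26, all 8 in HOXA7). The interval of group 7, from 0.412 to 1.25, contains the ratios of groups 8, 9, 11 and 13. The interval of group 2, from 1.34 to 2.37, does not overlap that of group 7. These 2 groups were picked as the highest and the lowest, each rests on 2 genes and the intervals are too narrow, so no difference is read from this.

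By annotation, exons of the clusters had the highest share listed and the highest ratio. Windows between genes had the lowest share, and windows near starts the lowest ratio. Windows within 500 bp of a protein-coding start were listed in 41 of 88 cases (46.6%), a ratio of 1.19 to prediction where autosomes had 0.888. Exon windows away from starts were listed in 78 of 153 cases (51.0%), a ratio of 1.50 where autosomes had 1.14. Intron windows were listed in 169 of 340 (49.7%), 1.33 against 1.15, and windows between protein-coding genes in 285 of 819 (34.8%), 1.21 against 0.876. In HOXA the ratio was nearly flat, from 1.55 between genes to 1.58 in the other classes. In HOXD only exons were above the prediction, with 18 of 36 windows and a ratio of 1.56 (1.07 to 2.04), while its introns had 0.833, its starts 0.841 and its windows between genes 0.876. By share, exons were the highest class in HOXC and HOXD only. In HOXA exons had 46.0% and introns 56.7%, and in HOXB exons had 52.6% and introns 53.4%. Exon ratios ran from 1.37 to 1.58 over the 4 clusters. Intron ratios ran from 0.833 to 1.58 and those between genes from 0.876 to 1.55. In the start class the intervals of HOXA (1.09 to 2.00) and HOXD (0.408 to 1.46) overlapped.

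Position relative to CpG-rich stretches was examined next. Inside runs of neighbouring windows with 20 or more CpG sites each, 163 of 314 windows were listed (51.9%), a ratio of 1.20, where autosomes had 44.4% and 1.03. In the windows 1 to 2 away from such a run it was 158 of 348 (45.4%), a ratio of 1.28, where autosomes had 51.2% and 1.38. On the autosomes these shores were listed more often than the stretches themselves. In the HOX clusters the share was higher inside, with overlapping intervals (46.4 to 57.4 inside and 40.2 to 50.7 beside). By the ratio to prediction the shores were higher in both, but the HOX intervals overlapped (1.07 to 1.33 inside and 1.14 to 1.43 beside). The ratio was higher beside in HOXB and HOXC and nearly level in HOXA (1.44 inside, 1.45 beside) and HOXD (0.979 inside, 0.966 beside). Far from them, 5 or more windows away, the clusters had 162 of 510 (31.8%), a ratio of 1.30, where autosomes had 16.1% and 0.971. HOXA had 62 of 145 windows listed there, a ratio of 1.94, and HOXD 9 of 59, a ratio of 0.745.

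Listed windows came in runs. The clusters held 209 runs with a median length of 2 windows, and 13.4% of them had 5 or more, where autosomes had 10.7%. The longest was in HOXC, 20 listed windows in a row on chr12:54341501-54351500, with a mean of 18.9 CpG sites per window. It began after the end of HOXC13 and ran through the start of HOXC12 and most of its transcript, and 43.6% of its windows were predicted. The autosomes held 2326 runs of 20 or more. In HOXA the longest run was 11 windows on chr7:27183501-27189000, which began upstream of HOXA5 and held all of HOXA6. In HOXB it was 9 windows on chr17:46656001-46660500, upstream of HOXB4, and in HOXD 6 windows on chr2:177037001-177040000, at the end of HOXD3 and of the antisense transcript HAGLR.

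The longest runs of unlisted windows held starts of HOX genes in HOXC and HOXD and lay apart from them in HOXA and HOXB. In HOXC 26 unlisted windows on chr12:54320001-54333000 held the start of HOXC13 and most of its antisense transcript HOXC13-AS. This run begins at the edge of the region, so its length is a lower bound. In HOXD 20 windows on chr2:177014501-177024500, a CpG-containing stretch (mean 16.9 sites per window, 36.2% predicted), held the starts of HOXD4 and HOXD3 and the microRNA gene MIR10B. In HOXB the longest, 17 windows on chr17:46776501-46785000, overlapped the end of LINC02086 and ran beyond it. It lay in the wide gap before HOXB13 and had a mean of 5.35 CpG sites. The next, 16 windows on chr17:46684501-46692500, held HOXB7 and the transcript of HOXB8 and was CpG-rich, on average 22.9 CpG sites per window, with 38.2% predicted. In HOXA the longest, 23 windows on chr7:27261001-27272500, overlapped no transcript, and a run of 10 on chr7:27209001-27214000, with a mean of 29.9 CpG sites, held HOXA10.

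Non-coding genes are frequent between the HOX genes, and several long non-coding RNAs act on the clusters. Of 32 long non-coding RNA genes, 18 had a listed start window (56.2%), against a background of 34.3% of autosomal ones. The 34.3% is not matched for base composition, and no predicted share is given for these starts. Of all windows in the regions 40.9% were listed. Many of these genes share their start with a HOX gene or with each other, so they are not independent. HOTAIR, transcribed from HOXC and known for its link to Polycomb at HOXD, had an unlisted start with 38 CpG sites and 6 of 25 windows listed. HOTTIP, at the 13 end of HOXA and known to act through WDR5, had an unlisted start and 3 of 11 windows. HOXA-AS2, HOXA-AS3, HOXC-AS2, HOXC-AS3, HOXD-AS2 and HOXC13-AS were among those with a listed start. For HOXC13-AS this was the only listed window of 9, and it follows directly on the long unlisted run at HOXC13.

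Of 7 microRNA genes in the regions, 2 had a listed window at their start (28.6%), against a background of 26.6% of autosomal ones. MIR196A1, MIR196A2, MIR196B, MIR10B and MIR615 were unlisted, and MIR3185 and the gene annotated as AC009336.1 were listed. The miR-196 genes lie upstream of the group 9 gene in 3 of the clusters, and their main products share the seed by which a microRNA pairs with its targets, among which HOXB8 is the classical one. The mature sequences (RefSeq) are given with the seed, bases 2 to 8, in capitals.

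hsa-miR-196a-5p: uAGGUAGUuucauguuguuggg

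hsa-miR-196b-5p: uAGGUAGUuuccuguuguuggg

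The windows of the 3 miR-196 genes differed in composition, with 42 CpG sites at MIR196B, 9 at MIR196A2 and 3 at MIR196A1. Upstream of them 0, 6 and 2 of 6 windows were listed, in the same order. MIR196B thus lies in the unlisted run over HOXA10, and MIR196A2 directly follows a listed run that begins in HOXC10 and ends beyond it. MIR10B, next to HOXD4, had 4 of 6 upstream windows listed, and MIR615, inside HOXC5, 2 of 6.

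The few other protein-coding genes of the regions had listed starts, against a background of 27.4% of all protein-coding starts, except ENSG00000273049. That gene, in HOXC, had an unlisted start window with 41 CpG sites, and ENSG00000257184 in HOXA had a listed one. EVX1 and EVX2, homeobox genes at the 13 ends of HOXA and HOXD, and PRAC1 and PRAC2, small genes beside HOXB13 expressed in prostate and distal colon, all had a listed start window. EVX1 had 7 of 10 windows of its transcript listed and EVX2 2 of 13. The hypoxia-inducible factors bind a core sequence of ACGTG or GCGTG, and either was found on at least 1 strand of the 250 bases upstream of 26 of 39 HOX genes (66.7%), where 51.3% of all protein-coding genes had it. The mean CpG number of these sequences was 16.2 for HOX genes and 18.0 for all. Both upstream sequences printed above, of HOXA9 and HOXD10, hold it. The difference between 66.7% of 39 genes and 51.3% was not tested, and a match of these letters is no measure of binding.

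Genes outside the clusters that work with HOX genes are given for comparison, beside the 27.4% of all protein-coding starts. Of 9 HOX cofactor genes (the PBX, MEIS and PKNOX families, whose proteins bind DNA together with HOX proteins) only PBX4 had a listed start, and of 14 trithorax and Polycomb genes only MEN1. Of 6 ParaHox and CDX genes, the closest relatives and upstream regulators of HOX genes, CDX1, CDX2 and GSX2 had one. From composition 39.2% of the cofactor starts, 25.3% of the trithorax and Polycomb starts and 40% of the ParaHox and CDX starts were predicted. Upstream, 38.9% of cofactor windows were listed, with 39.1% predicted. Trithorax and Polycomb genes had 47.6% listed upstream with 29.1% predicted, a higher ratio (1.64) than that of the HOX genes, and ParaHox and CDX genes 27.8% with 34.8% predicted. These lists are short and the differences were not tested.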

How the data were processed

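The 4 conditions of FADU cells had 1 library each. Per the labels and the published methods, the authors mapped reads to hg19 with Bowtie (version 0.12.7 in the submitters' processing notes) and made 500 bp windows with MEDIPS. The name of the deposited table carries a minimum of 20. What it was applied to is not given in the sources used here. The deposited table holds window positions and 4 value columns whose names match no sample. These columns were not used, so tests, replicate spread and depth are not given.

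Window positions were laid on GRCh37. The predicted share was the share of listed autosomal windows without undetermined bases of the same CpG number (40 or more as 1 class) and GC content (steps of 25 bases). Genes and starts were canonical transcripts of GENCODE version 44 lifted to GRCh37. Windows were assigned to a gene, or to the 3000 bp upstream, by midpoint. The calculation was tested on simulated tables. Intervals are 95% Wilson intervals. They cover counting error only.

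The members and gene lists were chosen with earlier results of these data known. Genes named with values were HOXA9, HOXB13, HOXC10 and HOXD10, the genes at both ends of each cluster, those with the highest and lowest listed share, and those on the longest runs. Further genes, such as HOXA4, HOXA10, HOXB9, HOXD4 and HOXD8, were named after their values were seen. Upstream sequences end at the start, since the bases after it are untranslated. Some items that this rule covers are not reported here. The scripts ran in Python 3.11.15 with the packages Matplotlib 3.10.9, SciPy 1.17.1, NumPy 2.4.6 and, for tables, pandas 2.3.3.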

Additional observations from a re-analysis of the deposited data

How the results depend on the processing

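No paired analysis was possible because the columns carry no replicate number and a condition had only 1 library. Of 73 alternative values, 12 moved outside the interval of the value reported, and these were all shares or ratios. The counts of starts and genes have no interval, so their alternatives, given next, are not among the 12. The count of listed HOX starts was 15 instead of 13 with the outermost annotated start of the gene, and that of genes with a listed window upstream 36 instead of 34, or 30 with 1500 bp. The HOXD ratio of 0.958, whose interval holds 1, was above 1 under 3 alternatives, the region from the first to the last HOX gene (1.03) and the 2 given next. With no prediction, which sets the clusters against all autosomal windows, the ratios were 2.73 for HOXA, 2.34 for HOXB, 2.38 for HOXC and 1.69 for HOXD, since the clusters are richer in CpG sites than the autosomes. With the prediction from windows of the own chromosome they were 1.76 for HOXA, 1.03 for HOXB and 1.35 for HOXD. Leaving out HOXA, the listed share was 16.3% for windows with 0 to 4 CpG sites and 52.8% for those with 20 to 39, and the ratio of groups 1 to 4 was 1.33. Leaving out HOXD, the latter was 1.72, and without HOXA3 and HOXB3 it was 1.29. The last alternative and the removal of the cap on CpG number were chosen after seeing the data. The table gives no condition, depth or replicate for a listed window, the cytosine mark is uncertain, and regional copy number was not tested.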
